A study of Mus musculus with 31 samples.

Results

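Peg10, Sgce, Casd1, Ppp1r9a and Asb4 are neighbouring protein-coding genes on mouse chromosome 6, and their allele-specific expression was followed from embryonic stem cells (ESCs) to cultured and native cortex. The genes were taken by symbol from the allele-specific tables, whatever their values, and make up 5 of the 17484 gene features that occur in at least 1 of the 5 stage tables. All 5 genes were listed in every table and had enough read bases to be tested at every stage. In the RefSeq gene order for mouse the run reads Col1a2, Casd1, Sgce, Peg10, Gmfg-ps, Ppp1r9a, Pon1, Pon3, Pon2, Asb4 and Pdk4. Sgce lies on the minus strand and the other members lie on the plus strand, so that Sgce and Peg10 point away from each other.

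The samples were first-generation hybrids of C57BL/6J (B6) and JF1 mice, bred in both directions so that parent and strain can be separated. BJ1 hybrids had a B6 mother and a JF1 father, and JB6 hybrids had a JF1 mother and a B6 father. Hybrid ESCs (4 libraries) were compared with cells differentiated towards cortex for 12 days (d12, 4 libraries) and 21 days (d21, 4 libraries), and with in vivo cortex of newborn mice (P0, labelled Ctx, 7 libraries) and of embryos at E13.5 (labelled DT, 6 libraries). Each culture stage had 2 BJ1 and 2 JB6 libraries, P0 had 4 BJ1 and 3 JB6 libraries, and E13.5 had 3 of each. The ESCs had been derived from blastocysts and kept in medium with a GSK3β inhibitor, LIF and BMP4. Differentiation used a defined medium with B27, and cyclopamine was added at 1 µM from day 2 to day 10. The B6 parent of the cultured hybrids carried an Oct4-GFP transgene and, per the deposited notes, traces of CBA genome, whereas the in vivo hybrids came from JF1 and C57BL/6 mice described there as pure. All 12 culture libraries were labelled male and 11 of the 13 in vivo libraries female. The labels do not tie the replicates of a culture group to separate lines, so cross and line cannot be told apart in culture. The p-values describe these samples only. They rest on a robust estimate of spread made with the help of all genes tested, and need not measure the spread of 1 gene between its libraries. How far a gene's own spread counts in them can differ between genes.

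The tables give read bases, that is, the bases of sense reads that fell on a position where B6 and JF1 differ, summed per gene for the maternal and the paternal allele. The 25 libraries held between 5192382 and 8618253 read bases (mean 6323163). The maternal share is the percentage of a gene's read bases that carried the mother's base, and levels are in CPM, a gene's read bases in proportion to all read bases of its library. One read can cover several positions, so read bases are not independent molecules, and the intervals and limits given for counts cover counting error only. Levels of different genes are set side by side only per covered position, of which Peg10 had at most 10, Sgce 6, Casd1 10, Ppp1r9a 52 and Asb4 29.

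The cultures were not composed of cortical cells alone. The summed level of 8 mesenchyme and muscle markers was 1933 to 3712 CPM at d12 and 6379 to 10285 at d21, against 166 to 294 at P0 and 8.11 to 745 at E13.5. The summed level of 8 endoderm and epithelium markers was 2418 to 3801 at d12 and 2659 to 3387 at d21, against 2.82 to 6.87 at P0 and 6.34 to 22.9 at E13.5. Cortical progenitor markers summed to 165 to 402 at d12, against 1206 to 1334 at E13.5, and neuron markers to 646 to 948 at d21, against 5434 to 5795 at P0. Among the ESC libraries, JB6 replicate 2 stood apart: its pluripotency markers summed to 2475, against 4221 to 4938 in the other 3, and its endoderm and epithelium markers to 1431, against 396 to 442. In these bulk samples fewer cells of a type and less RNA per cell cannot be told apart.

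Genomic imprinting is the parent-of-origin-specific silencing of one allele, set by DNA methylation laid down in the germ line. In this domain the mother's copy of the shared Sgce and Peg10 promoter region is methylated, and both genes are known as paternally expressed. Ppp1r9a and Asb4 are known as maternally expressed in some tissues, Ppp1r9a mainly in placenta and other extraembryonic tissue.

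Peg10 and Sgce were read almost entirely from the paternal allele at all 5 stages, whereas the maternal side of the domain changed with stage. The test of parental bias, which averages both crosses, called 2 of the 5 genes in ESCs, where it called 1.4% of all genes tested. It called 4 of the 5 at d12 (1.78% of all genes) and 4 at d21 (1.38%). In vivo it called 3 of the 5 at P0 (0.548%) and 3 at E13.5 (0.49%). The called genes were Peg10 and Sgce at every stage, Casd1 at d12, Ppp1r9a at d12 and d21, and Asb4 at d21, P0 and E13.5. Over all genes, calls in culture were more often maternal than paternal: 1.05% against 0.356% in ESCs, 1.3% against 0.483% at d12 and 1.06% against 0.326% at d21. In the cortex they were 0.231% against 0.317% at P0 and 0.22% against 0.27% at E13.5.

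**Figure D1:**
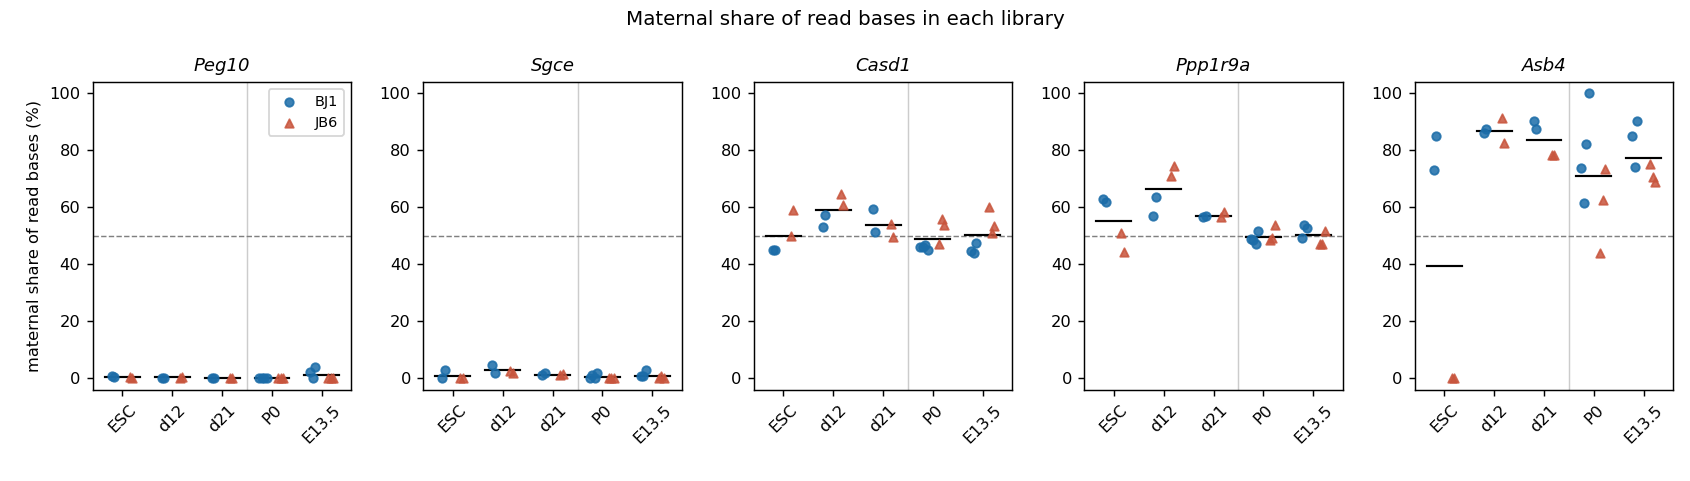
Maternal share of read bases (percent, vertical axis) in each of the 25 libraries for the 5 genes, by stage, with circles for BJ1 libraries, triangles for JB6 libraries and a black bar for the stage mean; the dashed line marks 50%. Peg10 and Sgce lie near 0 at every stage, Casd1 and Ppp1r9a lie above 50% in all 4 d12 libraries, and the ESC values of Asb4 split by cross.

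Peg10 derives from a retrotransposon and encodes a gag- and pol-like protein that is needed for placenta formation in mice. In ESCs its maternal share was 0.805% and 0.588% in the BJ1 libraries and 0.429% and 0.0642% in the JB6 libraries. At d12 it was 0.241% in both BJ1 libraries and 0.236% and 0.353% in the JB6 libraries. At d21 it was 0.230% and 0.233% in the BJ1 libraries and 0.121% and 0.124% in the JB6 libraries. All 12 culture libraries therefore held a small number of maternal Peg10 read bases, in total 81 of 35811. At P0 no maternal read base was seen in any of the 7 libraries (0 of 526 in total, which allows a share of up to 0.570%). At E13.5 the maternal share had a lowest value of 0, a median of 0 and a highest value of 3.82%, and the 7 maternal read bases of 873 came from 2 of the 3 BJ1 libraries. The stage means were 0.472% ± 0.312 in ESCs, 0.268% ± 0.0568 at d12 and 0.177% ± 0.0627 at d21 (SD, n = 4 each), 0 at P0 (n = 7) and 0.995% ± 1.63 at E13.5 (SD, n = 6).

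The parental bias of Peg10, as maternal over paternal, was a log2 ratio of -8.57 in ESCs (adjusted p = 1.07e-23) and -9.18 at d21 (adjusted p = 2.51e-44). It was -8.60 at d12, where the p-value was too small to be represented. These ratios rest on 14 maternal read bases in ESCs, 23 at d21 and 44 at d12, and no SE is given, since it is unreliable on so few. No fold is given for the cortex, where the maternal allele was at 0 in 11 of 13 libraries, but the adjusted p was 9.35e-20 at P0 and 3.01e-30 at E13.5. The ESC call was lost with limma on the log2 ratios (adjusted p = 0.334).

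Peg10 was much more abundant in culture than in cortex. Its level in ESCs was 135 and 130 CPM in the BJ1 libraries, 40 in JB6 replicate 1 and 600 in JB6 replicate 2. At d12 it was 709 and 538 in the BJ1 libraries and 1180 and 329 in the JB6 libraries. At d21 it was 306 and 461 in the BJ1 libraries and 836 and 517 in the JB6 libraries. The lowest d12 or d21 library thus lay above the highest cortex library by more than the whole range within the cortex. At P0 the level ran from 9.88 through a median of 10.6 to 17, and at E13.5 from 14.7 through 22.7 to 33.0. On the log2 scale Peg10 was 5.12 higher at d12 than at E13.5 (SE 0.321, adjusted p = 6.94e-08) and 5.47 higher at d21 than at P0 (SE 0.153, adjusted p = 1.47e-14). Between the cortex stages it fell by 0.86 at P0 relative to E13.5 (SE 0.131, adjusted p = 8.8e-06).

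Marker sums of mesenchyme, epithelium and trophoblast were likewise higher at d12 and d21 than in cortex. From d12 to d21 the mean mesenchyme sum rose from 2613 to 8845 and the mean trophoblast sum from 213 to 380. The mean epithelium sum was 3092 and then 2992, and mean Peg10 was 689 and then 530, a change in Peg10 that did not pass the test. Beside the mesenchyme and epithelium sums above, 7 of 8 trophoblast markers were in the tables, and their sum was 134 to 296 at d12 and 334 to 433 at d21, against 3.95 to 9.51 at P0 and 82.5 to 106 at E13.5. The leading one in culture was the keratin gene Krt7, with a mean of 136 at d12 and 291 at d21, against 0.0456 at P0 and 0.268 at E13.5. The E13.5 sum was nearly all Tfap2c, a transcription factor gene also read in ESCs, with a mean of 43.1 at d12 and 43.9 at d21, against 6.75 at P0 and 92.3 at E13.5. By library, the trophoblast sum at d12 was 246 and 174 in BJ1 and 296 and 134 in JB6, ranked as Peg10 was. At d21 it was 433 and 364 in BJ1 and 334 and 387 in JB6, and the library with most Peg10 had the lowest sum. The part of mesenchyme, epithelium or trophoblast cells in the Peg10 level was not tested. Between d12 and ESCs the Peg10 change of 1.53 did not pass the test (SE 0.748, adjusted p = 0.105). Without ESC JB6 replicate 2 it was 2.67 (adjusted p = 5.80e-04), and without d12 JB6 replicate 2 it was 1.90 (adjusted p = 0.035). Between d21 and d12 the change was -0.48 (SE 0.332, adjusted p = 0.254), and without d12 JB6 replicate 2 it was -0.79 (adjusted p = 0.00466).

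**Figure D2:**
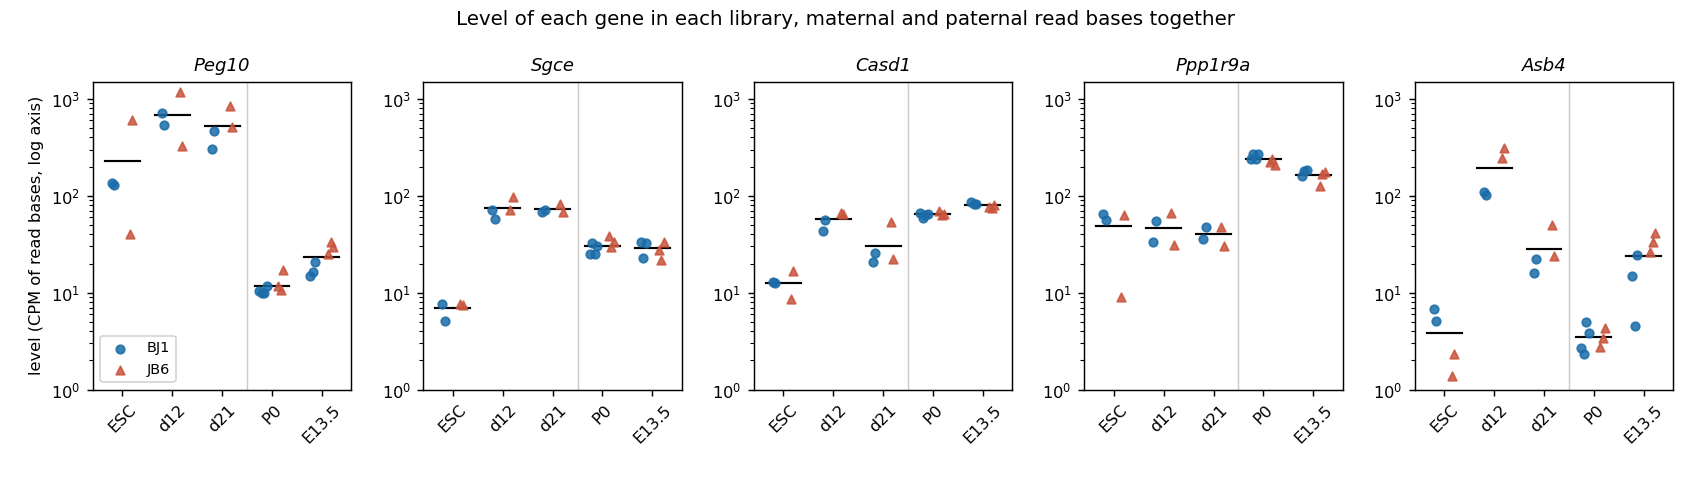
Level of each gene in each library as CPM of both alleles (vertical log axis), by stage, with circles for BJ1, triangles for JB6 and a black bar for the stage mean. Peg10 lies between 306 and 1180 at d12 and d21 and between 9.88 and 33.0 in the cortex, while Ppp1r9a lies between 125 and 267 in the cortex and at or below 66.7 in culture.

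The paternal allele carried the Peg10 change, and the maternal allele was low throughout. Its paternal level averaged 687 ± 362 CPM at d12 (SD, n = 4), against 23.0 ± 7.44 at E13.5 (SD, n = 6), a log2 change of 5.14 (SE 0.336, adjusted p = 4.59e-07). Its maternal level averaged 1.74 ± 0.736 at d12, against 0.184 ± 0.321 at E13.5 (adjusted p = 0.00127), where 4 of 6 libraries held no maternal read base and no fold is given. The parental bias was not called different between d12 and E13.5 (adjusted p = 0.965).

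Other genes that descend from retrotransposon gag sequences mostly fell where Peg10 was higher. Of the 17 listed, 10 were tested between d12 and E13.5, where 1 rose and 8 fell, against 40% and 40.3% of all genes tested (median log2 change -2.44, against -0.01 over all genes). The one that rose was Ldoc1 (5.28, adjusted p = 3.62e-08), and the largest fall was in Pnma3, a neuronal paraneoplastic antigen gene (-5.84, adjusted p = 1.52e-06). Of 11 tested between d21 and P0, 1 rose and 8 fell, against 42.2% and 41.6% of all genes (median -0.81, against -0.001 over all genes). Rtl1, the paternally expressed gag-derived gene of the Dlk1 domain, was the one gene of this list with a parental call, at d21 (log2 ratio -3.85, adjusted p = 0.00174). Its maternal share there averaged 20.4% in the BJ1 libraries and 0 in the JB6 libraries.

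Sgce encodes epsilon-sarcoglycan, a membrane protein of the dystrophin-glycoprotein complex, and loss of its human counterpart causes myoclonus-dystonia. In ESCs its maternal share was 0 in 3 libraries and 3.03% in BJ1 replicate 2, from a single maternal read base. At d12 it was 4.57% and 1.92% in the BJ1 libraries and 2.61% and 1.81% in the JB6 libraries. At d21 it was 1.04% and 1.68% in the BJ1 libraries and 1.02% and 1.43% in the JB6 libraries. All 8 differentiated libraries therefore lay above 1%, and none of them was free of Sgce read bases counted as maternal. Whether all of these came from maternal RNA was not tested. At P0 it ran from 0 through a median of 0 to 1.74%, and at E13.5 from 0 through a median of 0.727% to 2.91%. Pooled over libraries, the share was 2.53% at d12 (Wilson 95% interval 1.93 to 3.32) and 1.30% at d21 (0.879 to 1.91), against 0.367% at P0 (0.157 to 0.855) and 0.915% at E13.5 (0.498 to 1.68).

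The parental log2 ratio of Sgce was -5.18 at d12 (adjusted p = 1.76e-270) and -6.23 at d21 (adjusted p = 6.11e-30). These ratios rest on 50 and 25 read bases counted as maternal, and no SE is given on so few. In ESCs Sgce was called (adjusted p = 9.43e-09), but no fold is given, since 1 of 159 read bases was maternal. The difference in bias between d12 and ESCs was not called (adjusted p = 0.699). The test also called Sgce at P0 (adjusted p = 9.63e-27) and E13.5 (adjusted p = 1.48e-35). The difference in bias between d12 and E13.5 was 2.06 (SE 0.569, adjusted p = 0.0742) and missed the threshold. It passed when only these 2 stages were fitted (adjusted p = 0.0481) and without d12 BJ1 replicate 2 (0.0294), E13.5 BJ1 replicate 3 (0.024) or E13.5 JB6 replicate 2 (0.0397). The ESC call was lost with limma (adjusted p = 0.121).

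Sgce rose on differentiation and stayed high. Its level was 7.63, 5.05, 7.73 and 7.51 CPM in the 4 ESC libraries, 70.6, 58.0, 71.0 and 96.4 at d12 and 67.9, 72.0, 82.9 and 67.7 at d21, with the BJ1 libraries first in each set. It ran from 25.3 through a median of 30.3 to 38.1 at P0 and from 21.7 through 29.9 to 33.5 at E13.5. The ESC, cortex and differentiated libraries formed levels that did not overlap, with ESCs lowest. The change at d12 relative to ESCs was 3.17 (SE 0.229, adjusted p = 1.52e-06). Sgce was 1.55 higher at d12 than at E13.5 (SE 0.166, adjusted p = 1.72e-06) and 1.29 higher at d21 than at P0 (SE 0.102, adjusted p = 3.49e-09). Neither d21 relative to d12 (-0.08, SE 0.158, adjusted p = 0.719) nor P0 relative to E13.5 (0.16, SE 0.127, adjusted p = 0.251) passed the test. Sgce read bases counted as maternal were also higher at d12, at 1.98 ± 0.892 CPM (SD, n = 4), against 0.264 ± 0.353 at E13.5 (SD, n = 6). The log2 change was 3.10 (SE 0.636, adjusted p = 0.000554), and the E13.5 level rested on 10 read bases.

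Other genes of the dystrophin-glycoprotein complex moved in both directions. Between d12 and E13.5, 7 of 13 tested genes rose and 4 fell, against 40% and 40.3% of all genes (median log2 change 0.34, against -0.01 over all genes tested). The cytoskeletal linker gene Utrn rose by 2.69 (adjusted p = 1.73e-06), and Dmd, which encodes dystrophin, fell by 3.59 (adjusted p = 2.24e-07). Between d12 and ESCs 6 of 13 rose and 2 fell, against 34.5% and 32.9% of all genes. The rises were led by the laminin gene Lama2 (6.14, adjusted p = 1.45e-05) and the sarcospan gene Sspn (5.47, adjusted p = 3.51e-05). Between P0 and E13.5, where Sgce was not called, 8 of 13 rose and 2 fell, against 40.1% and 41.4% of all genes, led by the dystrobrevin gene Dtna (3.03, adjusted p = 1.44e-14).

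Casd1, Ppp1r9a and Asb4 were the members with more maternal than paternal read bases at d12, and the sequence before their transcription starts is shown to set these genes side by side. RefSeq promoter windows on GRCm38.p6 were available for these 3 members, with 2 starts for each gene, and 4 of the 6 windows are printed as the 250 bases before the start on the plus strand. These positions belong to GRCm38.p6 and are not those of the mm9 build on which the read bases were counted. Capitals mark CG, the dinucleotide at which mammalian DNA is methylated. It was searched as the letters CG, which read the same on both strands, with no other motif.
Casd1, chr6:4600661-4600910: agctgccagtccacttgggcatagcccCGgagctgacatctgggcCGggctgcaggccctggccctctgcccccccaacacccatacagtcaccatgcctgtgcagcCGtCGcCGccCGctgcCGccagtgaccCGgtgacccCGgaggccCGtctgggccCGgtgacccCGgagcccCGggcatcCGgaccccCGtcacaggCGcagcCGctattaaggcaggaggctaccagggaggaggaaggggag
Ppp1r9a first start, chr6:4902725-4902974: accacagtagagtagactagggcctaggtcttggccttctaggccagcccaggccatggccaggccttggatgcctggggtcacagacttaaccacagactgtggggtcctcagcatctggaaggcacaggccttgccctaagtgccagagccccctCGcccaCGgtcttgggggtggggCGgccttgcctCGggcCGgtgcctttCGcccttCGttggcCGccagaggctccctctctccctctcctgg
Ppp1r9a second start, chr6:4903061-4903310: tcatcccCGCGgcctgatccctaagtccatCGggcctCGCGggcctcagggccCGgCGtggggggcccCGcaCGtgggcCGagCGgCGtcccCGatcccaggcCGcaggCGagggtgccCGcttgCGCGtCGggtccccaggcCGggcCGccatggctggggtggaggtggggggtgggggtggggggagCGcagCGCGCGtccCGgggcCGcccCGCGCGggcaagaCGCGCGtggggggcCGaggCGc
Asb4, chr6:5383136-5383385: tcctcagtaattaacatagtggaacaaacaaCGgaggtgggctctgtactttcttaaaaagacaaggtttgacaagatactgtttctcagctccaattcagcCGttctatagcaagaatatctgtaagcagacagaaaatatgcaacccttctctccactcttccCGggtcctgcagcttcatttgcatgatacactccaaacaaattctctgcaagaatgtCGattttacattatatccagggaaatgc
The printed Casd1 window held 17 CG, the Ppp1r9a windows 8 and 35, and the Asb4 window 4. The other Casd1 window held 4 and the other Asb4 window 8. Over all 32851 promoter windows of this length the median was 6, and 92.1% held at least 1 CG.

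Casd1 encodes the enzyme that adds O-acetyl groups to sialic acids. Its maternal share at d12 was 53.1% and 57.3% in the BJ1 libraries and 64.6% and 60.6% in the JB6 libraries. Maternal read bases were in excess in all 4 libraries, whether the mother was B6 or JF1. The mean was 58.9% ± 4.86 (SD, n = 4), a log2 ratio of 0.52 (SE 0.102, adjusted p = 2.81e-05). The call rested on the tool, since DESeq2 gave an adjusted p of 0.159 and limma 0.328 for nearly the same ratio.

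At the other stages Casd1 was read from both alleles at similar levels. Its maternal share was 45.1% in both BJ1 libraries and 50.0% and 59.1% in the JB6 libraries in ESCs. At d21 it was 59.5%, 51.3%, 54.0% and 49.6%, the BJ1 libraries first. At P0 it ran from 44.9% through a median of 46.7% to 56.0%, and at E13.5 from 44.0% through 49.3% to 60.0%. The parental log2 ratio was 0.02 in ESCs, 0.21 at d21, -0.05 at P0 and 0.00 at E13.5, with adjusted p of 1, 0.861, 0.965 and 0.998. The bias at d12 exceeded that at E13.5 by 0.52 (SE 0.122, adjusted p = 0.0138), but this call was lost with read bases divided by 3 (0.176), with limma (0.133) and without d12 BJ1 replicate 2 (0.252), d12 JB6 replicate 1 (0.127) or E13.5 JB6 replicate 2 (0.0567).

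In the cortex the alleles of Casd1 were called for strain and not for parent. The JF1 allele gave over 50% of the read bases in 6 of 7 P0 libraries and in 6 of 6 E13.5 libraries. The log2 ratio of B6 over JF1 at P0 was -0.19 (SE 0.0648, adjusted p = 0.0155), a call lost with DESeq2 (0.131), limma (0.0639), read bases divided by 3 (0.106) and without P0 JB6 replicate 2 (0.124) or 3 (0.0687). At E13.5 it was -0.27 (SE 0.0657, adjusted p = 0.000482).

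The Casd1 level averaged 12.7 ± 3.41 CPM in ESCs, 57.4 ± 10.5 at d12 and 30.5 ± 15.3 at d21 (SD, n = 4 each), 64.5 ± 3.47 at P0 (SD, n = 7) and 80.1 ± 4.26 at E13.5 (SD, n = 6). The d21 spread came from JB6 replicate 1 with 53.3, against 20.8 to 25.9 in the other 3 libraries. Casd1 rose by 1.93 at d12 relative to ESCs (SE 0.233, adjusted p = 3.58e-05) and then fell by 1.01 at d21 relative to d12 (SE 0.204, adjusted p = 0.00117). Its change at d21 relative to P0 was -1.09 (SE 0.163, adjusted p = 9.69e-06). Between P0 and E13.5 it fell by 0.25 (SE 0.064, adjusted p = 0.00157). Between d12 and E13.5 it fell by 0.30 (SE 0.118, adjusted p = 0.0306), a call lost without either d12 BJ1 library (0.141 and 0.0753), without E13.5 BJ1 replicate 1 (0.0586) or 3 (0.0508), without the in vivo libraries labelled male (0.0586) and with the replicate block (0.116). At that contrast the paternal allele fell by 0.58 (SE 0.129, adjusted p = 0.00132), while the maternal allele changed by -0.06 (SE 0.133, adjusted p = 0.673).

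On differentiation 7 of 13 tested genes of sialic acid metabolism rose, as Casd1 did. Between d12 and ESCs the other 6 did not pass the test, while 34.5% of all genes rose and 32.9% fell (median log2 change 0.64, against 0.02 over all genes). Those that rose were led by the polysialyltransferase gene St8sia2 (6.99, adjusted p = 3.05e-06) and the sialyltransferase gene St3gal1 (4.00, adjusted p = 0.000541). Relative to E13.5, 6 of 13 were higher at d12, led by the sialidase gene Neu1 (2.36, adjusted p = 3.64e-09), and 4 were lower, led by St8sia4 (-3.09, adjusted p = 3.19e-07). Over all genes 40% were higher and 40.3% lower. Between P0 and E13.5, 10 of 14 rose and 3 fell, against 40.1% and 41.4% of all genes.

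Ppp1r9a encodes neurabin, which tethers protein phosphatase 1 to actin in neurons and at dendritic spines. At d12 its maternal share was 56.8% and 63.7% in the BJ1 libraries and 71.0% and 74.4% in the JB6 libraries. All 4 libraries were above 50%, with a mean of 66.5% ± 7.84 (SD, n = 4) and a log2 ratio of 1.02 (SE 0.115, adjusted p = 1.57e-16). The call was lost with limma (adjusted p = 0.113) and kept with DESeq2. At d21 the share was 56.4% and 56.9% in the BJ1 libraries and 56.5% and 58.2% in the JB6 libraries, a mean of 57.0% ± 0.819. The d21 ratio of 0.40 passed narrowly (SE 0.108, adjusted p = 0.0444). That call was lost without any 1 of the 4 libraries (adjusted p of 0.299 to 0.395), with DESeq2, limma or read bases divided by 3 (1, 0.367 and 0.503) and when each allele was scaled on its own (0.0537).

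In the cortex both alleles of Ppp1r9a were read alike. Its maternal share ran from 47.1% through a median of 48.8% to 53.9% at P0 and from 47.1% through 50.4% to 53.6% at E13.5. The log2 ratio was -0.01 at P0 (SE 0.0368, adjusted p = 0.991) and 0.02 at E13.5 (SE 0.0477, adjusted p = 0.991). The bias at d12 exceeded that at E13.5 by 1.00 (SE 0.115, adjusted p = 1.02e-08). The bias at d21 exceeded that at P0 by 0.41 (SE 0.11, adjusted p = 0.0541), which missed the threshold but passed without P0 BJ1 replicate 4 (0.0265), without P0 JB6 replicate 3 (0.0126), with only these stages fitted (0.0358) and with no filter on low counts (0.0433).

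In ESCs the allelic difference of Ppp1r9a ran with strain. Its maternal share was 62.7% and 61.9% in the BJ1 libraries and 50.9% and 44.4% in the JB6 libraries, so that B6 read bases were in excess in 3 of 4 libraries. The log2 ratio of B6 over JF1 was 0.48 (SE 0.114, adjusted p = 0.00125), a call lost without ESC JB6 replicate 2 (0.335, adjusted p = 0.227) and with DESeq2 (adjusted p = 0.0644). The parental ratio was 0.24 (SE 0.115, adjusted p = 0.64). The bias at d12 exceeded that in ESCs by 0.79 (SE 0.15, adjusted p = 0.00228). That call was lost without ESC JB6 replicate 2 (0.63, adjusted p = 0.502), without d12 BJ1 replicate 2 (adjusted p = 0.0975) and with read bases divided by 3 (adjusted p = 0.232).

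The level of Ppp1r9a was highest in the cortex. It was 65.2, 55.9, 9.11 and 63.7 CPM in the ESC libraries, 33.4, 54.6, 66.7 and 30.9 at d12 and 36.1, 47.9, 47.9 and 30.4 at d21, the BJ1 libraries first in each set. At P0 it ran from 208 through a median of 239 to 267, and at E13.5 from 125 through 171 to 184. The lowest cortex library lay above the highest culture library. Ppp1r9a was lower by 1.65 at d12 than at E13.5 (log2 change -1.65, SE 0.206, adjusted p = 1.01e-05) and by 2.51 at d21 than at P0 (-2.51, SE 0.11, adjusted p = 1.84e-12). It rose by 0.60 at P0 relative to E13.5 (SE 0.0693, adjusted p = 2.44e-07). Neuron and progenitor markers, given above, were likewise lower in culture. Between the cortex stages they moved apart: neuron markers summed to 5434 to 5795 at P0, against 1324 to 2263 at E13.5, and progenitor markers to 509 to 593 at P0, against 1206 to 1334 at E13.5. The part of these markers in the result was not tested. At d12 relative to E13.5 the paternal allele fell further (-2.25, SE 0.213, adjusted p = 1.72e-06) than the maternal allele (-1.24, SE 0.228, adjusted p = 0.000261), the difference tested above as the difference in bias.

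**Figure D3:**
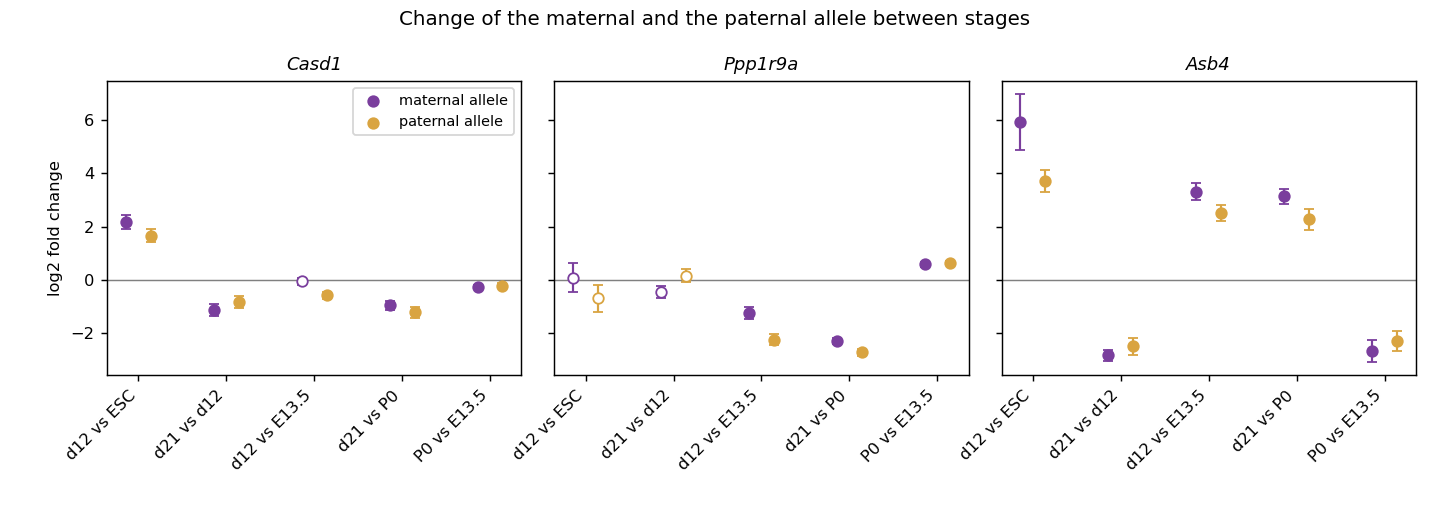
Log2 fold change of the maternal and of the paternal allele between stages for Casd1, Ppp1r9a and Asb4, as the first-named stage over the second, with bars of 1 SE; filled points passed an adjusted p of 0.05. For Ppp1r9a at d12 against E13.5 the paternal point (-2.25) lies below the maternal point (-1.24), and both alleles of Asb4 move together between d21 and d12.

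Genes that act with neurabin showed no common direction. Of 14 tested between d12 and E13.5, 7 rose and 4 fell, against 40% and 40.3% of all genes (median log2 change 0.18, against -0.01 over all genes), led by Rab3il1 (2.53, adjusted p = 1.34e-07) and the kinase gene Rps6kb1 (-1.42, adjusted p = 8.24e-08). Of 14 tested between P0 and E13.5, 6 rose and 7 fell, against 40.1% and 41.4% of all genes. The postsynaptic scaffold gene Dlg4 (2.04, adjusted p = 2.47e-13) and Ppp1r9b (1.58, adjusted p = 2.45e-14), which encodes spinophilin, were among those that rose with Ppp1r9a. The phosphatase catalytic gene Ppp1cb was the one gene of this list whose parental bias differed between d12 and E13.5 (0.48, adjusted p = 0.0489).

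Asb4 encodes an ankyrin repeat and SOCS box protein, a substrate receptor of cullin 5 ubiquitin ligases. At d12 its maternal share was 86.2% and 87.4% in the BJ1 libraries and 91.2% and 82.5% in the JB6 libraries. At d21 it was 90.4% and 87.3% in the BJ1 libraries and 78.3% and 78.4% in the JB6 libraries. Maternal read bases thus outnumbered paternal ones by several times in all 8 differentiated libraries. At P0 the share ran from 43.8% through a median of 73.5% to 100%, on only 13 to 34 read bases per library, and at E13.5 from 68.7% through 74.6% to 90.3%. It was above 50% in 6 of 7 P0 libraries and in 6 of 6 E13.5 libraries.

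The parental log2 ratio of Asb4 was 2.40 at d21 (SE 0.154, adjusted p = 2.48e-15) and 1.97 at E13.5 (SE 0.144, adjusted p = 2.84e-17). At P0 it was 1.43 (SE 0.319, adjusted p = 0.0143), a call lost with DESeq2 (0.528), limma (0.734), read bases divided by 3 (0.353) and without P0 BJ1 replicate 3 (0.0579) or 4 (0.0581) or P0 JB6 replicate 2 (0.073) or 3 (0.319). At d12, the stage with most Asb4 read bases, the ratio was 2.69 and did not pass (SE 0.262, adjusted p = 0.0851). Its unadjusted edgeR p was 0.00179, against 1e-18 for Ppp1r9a at d12, whose ratio was smaller relative to its SE. The cause of this was not tested. DESeq2 gave 2.76 (adjusted p = 6.13e-16) and limma 2.76 (adjusted p = 0.0431), and the test passed without any 1 of the 4 d12 libraries, with ratios of 2.48 to 3.04.

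In ESCs Asb4 was read from the B6 allele in both crosses. BJ1 libraries held 27 maternal and 10 paternal, and 28 maternal and 5 paternal, read bases, so that 73.0% and 84.8% were maternal. JB6 libraries held 0 maternal read bases of 8 and of 12, which allows maternal shares of up to 37.5% and 25%. Strain bias was called, towards B6 (adjusted p = 4.76e-05), and parental bias was not (adjusted p = 0.472). No ratio is given for either, since the maternal allele was at 0 in both JB6 libraries. A parental bias more maternal at d12 than in ESCs was called (adjusted p = 0.00525), but this call rests on those few ESC read bases, and no size is given for it. It was lost without ESC JB6 replicate 2 (adjusted p = 0.0763), with only the 2 stages fitted (0.762) and with read bases divided by 3 (0.548). At d12 the ratio of B6 over JF1 was 0.02 (SE 0.285, adjusted p = 0.963), and its sign turned on which JB6 library was left out. At d21 it was 0.55 (SE 0.168, adjusted p = 0.00952), a call lost with DESeq2 (0.154), limma (0.0517), read bases divided by 3 (0.151) and without d21 BJ1 replicate 1 (0.089) or d21 JB6 replicate 1 (0.0732). At P0 it was 0.68 (SE 0.33, adjusted p = 0.0881), and at E13.5 0.69 (SE 0.153, adjusted p = 0.000162), a call lost with limma (0.113).

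The level of Asb4 peaked at d12. It was 6.72, 5.05, 1.37 and 2.31 CPM in the ESC libraries, 110, 103, 248 and 308 at d12 and 16, 22.2, 49.9 and 23.8 at d21, the BJ1 libraries first in each set. The d12 libraries overlapped with none of the others, and at d12 and d21 both BJ1 libraries lay below both JB6 libraries. At P0 the level ran from 2.33 through a median of 3.43 to 4.93, and at E13.5 from 4.57 through 25.2 to 41.7. Asb4 rose by 5.28 at d12 relative to ESCs (SE 0.604, adjusted p = 7.54e-05) and fell by 2.78 at d21 relative to d12 (SE 0.205, adjusted p = 4.8e-07). It was 3.15 higher at d12 than at E13.5 (SE 0.292, adjusted p = 1.46e-06) and 2.95 higher at d21 than at P0 (SE 0.232, adjusted p = 3.41e-09). It fell by 2.58 at P0 relative to E13.5 (SE 0.354, adjusted p = 1.12e-05). Mesenchyme and epithelium markers were likewise higher at d12 and d21 than in cortex. Within E13.5, BJ1 replicate 2 had the least Asb4 (4.57) and a mesenchyme sum of 8.11. BJ1 replicates 1 and 3 had 14.7 and 24.2 with sums of 182 and 176. The JB6 libraries had 26.3, 33.0 and 41.7 with sums of 360, 745 and 563. The part of such cells in the Asb4 level and share, in culture or cortex, was not tested.

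**Figure D4:**
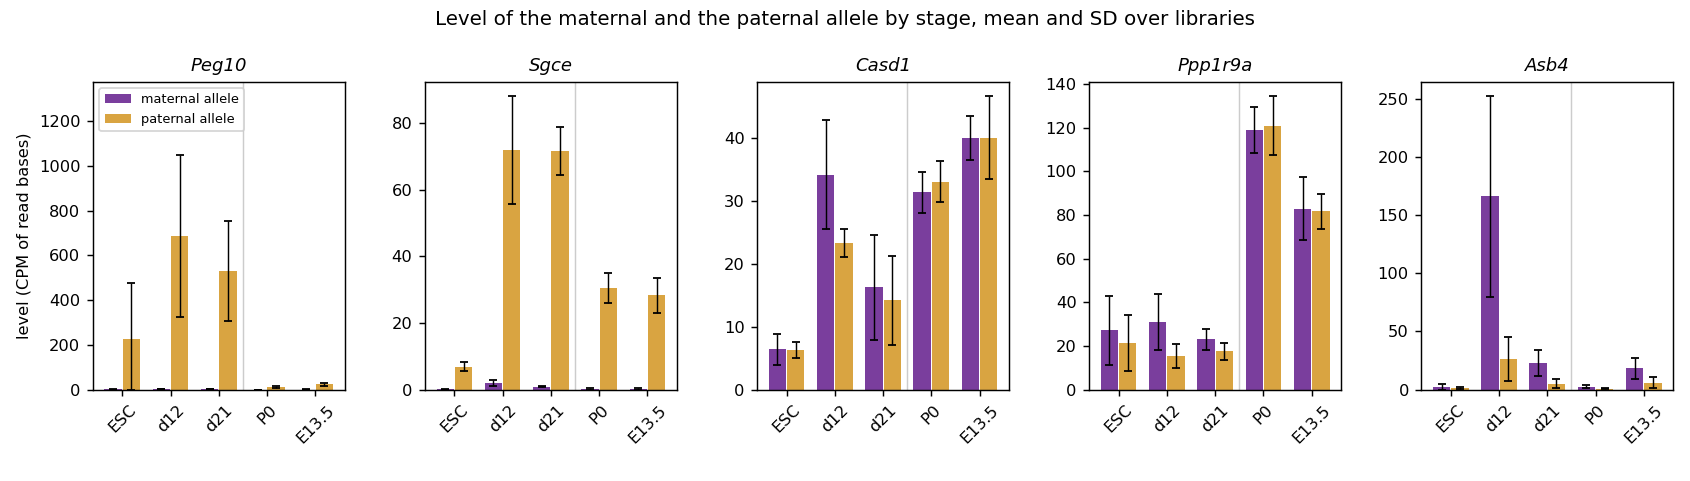
Mean level of the maternal and the paternal allele (CPM, each panel with its own linear axis) at each stage for the 5 genes, with bars of 1 SD over the 4, 4, 4, 7 and 6 libraries, stopped at 0 where they would pass below it. The paternal allele makes up nearly all of Peg10 and Sgce, and the maternal allele of Asb4 reaches 166 at d12 where the paternal allele reaches 26.

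Both alleles of Asb4 fell together between d21 and d12, the maternal allele by 2.83 (SE 0.208, adjusted p = 1.8e-07) and the paternal allele by 2.50 (SE 0.323, adjusted p = 3.42e-05). The maternal allele averaged 166 ± 86.0 CPM at d12 (SD, n = 4), against 18.2 ± 8.98 at E13.5 (SD, n = 6), and the paternal allele 26 ± 19, against 5.85 ± 4.80. The difference in bias between those stages was 0.73 (SE 0.285, adjusted p = 0.444). Of 10 genes for ASB proteins and cullin ligase subunits tested between d12 and ESCs, 1 rose and 4 fell, against 34.5% and 32.9% of all genes (median log2 change -0.16, against 0.02 over all genes). The cullin gene Cul5 fell by 1.67 (adjusted p = 0.000132) and Asb13 rose by 0.79 (adjusted p = 0.00901). Between d21 and d12 the elongin C gene, listed as Tceb1, fell by 0.96 (adjusted p = 0.00346).

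Per covered position, Peg10 was the most abundant of the 5 genes in culture, with 22.6 ± 25.3 CPM per position in ESCs, 68.9 ± 36.2 at d12 and 53.0 ± 22.3 at d21 (SD, n = 4 each). Next came Casd1 in ESCs (1.27 ± 0.341) and Sgce at d12 (12.3 ± 2.69) and d21 (12.1 ± 1.19). In the cortex Casd1 ranked first, at 6.45 ± 0.347 at P0 and 8.01 ± 0.426 at E13.5. Sgce followed with 5.11 ± 0.766 and 4.77 ± 0.889, then Ppp1r9a with 4.63 ± 0.412 and 3.17 ± 0.410, and Peg10 after these at 1.16 ± 0.249 and 2.31 ± 0.731 (SD, n = 7 at P0 and 6 at E13.5). Asb4 was last in ESCs and cortex. Many neighbours in these orders had libraries that overlapped and did not differ beyond their spread. They were Casd1, Sgce, Ppp1r9a and Asb4 in ESCs, each with the next, Sgce with Asb4 and Asb4 with Casd1 at d12, and Asb4 with Ppp1r9a at d21. In the cortex they were Casd1 with Sgce and Sgce with Ppp1r9a at P0, and Ppp1r9a with Peg10 at E13.5.

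Read against all genes, changes in level were common. Of the 5 members, 3 were called between d12 and ESCs, where 67.4% of all genes were called, and 2 between d21 and d12 (47.8%). All 5 were called between d12 and E13.5 (80.3%) and between d21 and P0 (83.7%), and 4 between P0 and E13.5 (81.5%). Differences in parental bias were rare. The test called 2 of 5 members between d12 and ESCs (0.341% of all genes) and 2 between d12 and E13.5 (0.912%). All of these were more maternal at d12. Over all genes 0.2% and 0.803% were called more maternal, and 0.141% and 0.109% more paternal. The test called 0 of 5 between d21 and d12 (0.0495%), between d21 and P0 (0.909%) and between P0 and E13.5 (0.136%). For Peg10, which had no maternal read base at P0, it could not decide between d21 and P0 or between P0 and E13.5. No SE was obtained for Peg10 in the latter contrast. At an unadjusted p under 0.05 the counts of members for these 3 contrasts were 2, 2 and 0 with edgeR. Over all genes they were 569 of 10095, 649 of 9686 and 501 of 9564. After adjustment limma called 0 members in each. Several of these contrasts share the libraries of a stage, so their values are not independent of each other.

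Strain bias was called in 3 of the 5 members in ESCs (44.6% of all genes), 1 at d12 (35.9%), 1 at d21 (34.4%), 2 at P0 (48.2%) and 4 at E13.5 (45.9%). At P0 the test could not decide for Peg10, which had no maternal read base in either cross. The call at d12 was Ppp1r9a (log2 ratio of B6 over JF1 -0.38, adjusted p = 0.00455), lost with DESeq2 (0.154), limma (0.0916), read bases divided by 3 (0.0871) and without d12 BJ1 replicate 1 (0.0888) or d12 JB6 replicate 2 (0.0708). Peg10 was called in ESCs (1.44, adjusted p = 0.00238) on 14 maternal read bases, 11 in BJ1 and 3 in JB6 libraries. That call was lost with DESeq2 (0.231), limma (0.654), read bases divided by 3 (0.0745) and without ESC JB6 replicate 2 (ratio 0.28, adjusted p = 0.742). In the cortex the calls of Peg10 and Sgce also rest on few maternal read bases: the 7 of Peg10 at E13.5, 9 of the 10 of Sgce at E13.5 and the 5 of Sgce at P0 came from BJ1 hybrids, whose mother was B6. The reverse cross gave 0 of 539 for Peg10 at E13.5, which allows up to 0.557%, and 0 of 686 for Sgce at P0, which allows up to 0.437%.

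Among the flanking genes, 2 had a parental call at d12 and 1 at d21. Of 20 listed genes around the domain, 8 were tested at d12, where Gng11 and Col1a2 were called (1.78% of all genes), and 11 at d21, where Col1a2 was called (1.38%). No call was made among the 5 tested in ESCs, the 11 at P0 and the 10 at E13.5. Gng11, a G protein gamma subunit gene, had a maternal share of 58.3% ± 6.05 at d12 (SD, n = 4; log2 ratio 0.47, adjusted p = 0.0236). Col1a2, a collagen gene next to Casd1, changed sign, with a ratio of 0.43 at d12 (adjusted p = 3.4e-07) and -0.15 at d21 (adjusted p = 0.000838), a difference of -0.58 (adjusted p = 1.51e-05). Its B6 allele was in excess in both crosses: the maternal share averaged 71.6% at d12 and 60.1% at d21 in BJ1 libraries, and 41.6% at d12 and 34.9% at d21 in JB6 libraries. Col1a2 rose by 9.54 at d12 relative to ESCs (adjusted p = 2.07e-07) and by 3.42 at d21 relative to d12 (adjusted p = 1.94e-08). Pon2, which lies between Ppp1r9a and Asb4, had shares of 59.3% ± 7.34 at d12 and 51.3% ± 6.23 at d21 and was not called. Calcr, known as maternally expressed in brain, had shares of 96.9% ± 6.25 at d12 (SD, n = 4) but on a mean level of only 1.14 CPM, below the filter.

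Over the 25 libraries and 8107 gene features, the genes whose log2 level was most like that of Peg10 were Tagln2 (Pearson r = 0.983), Tln1 (0.972), Sdc4 (0.971), Snx9 (0.970) and Gcnt1 (0.969). Those most like Sgce were Ano10 (0.976), Maged2 (0.973), Arfgap3 (0.964), Afap1l1 (0.964) and Tmed3 (0.960). None of these is a member of the domain. Peg10 itself followed Sgce with r = 0.335, Asb4 with 0.630, Casd1 with -0.434 and Ppp1r9a with -0.756. These values describe libraries that differ mainly by stage and share their normalisation.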

How the data were processed

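The RNA-seq libraries were stranded mRNA libraries of hybrid ESCs, cultures and cortex. Per the submitters' processing notes, CASAVA 1.8.2, Novoalign, HTSeq and edgeR were used with mm9. Per the deposited notes, the authors counted B6 and JF1 bases with SAMtools 0.1.18 at 12508968 strain differences less 6252 removed as CBA or DBA sequence in the B6 parent, and deposited raw counts of sense read bases per gene and allele. mm9 is the B6 genome, and parental bias was therefore averaged over both crosses. The deposited number of covered positions per gene, another kind of value, served to set genes side by side.

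From the counts, edgeR 4.0.16 (R 4.3.3; quasi-likelihood test, Benjamini-Hochberg adjustment over all genes tested, threshold 0.05) tested parental bias, strain bias, differences in parental bias between stages, and levels with cross as a covariate. Genes averaging 20 or more read bases a library were tested, for bias only those on autosomes and for level those on all chromosomes. TMM scaling was used for levels, while tests of bias used the library size alone, the same for both alleles. SEs are the log2 value divided by the square root of F and are unreliable where an allele has few read bases. Counts of zero allow 3. limma 3.58.1 (0.5 added to each allele) and DESeq2 1.42.0 were alternatives, and the steps were tested on simulated data. Likeness used log2(CPM + 1). The members, lists and tests were chosen with earlier results of these data known. Named are the 5 members, up to 3 called genes a direction for each related list and contrast, called neighbours, and the 5 genes most like Peg10 and Sgce. RefSeq windows came from GRCm38.p6. Further libraries of a 129 line at d12 and d21 were not analysed here.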

Additional observations from a re-analysis of the deposited data

Results flagged for a closer look

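Among the values by library, 8 lay far from the others of their stage by a gap test that chance meets in about 1 in 20 groups. The share and level of every member were tested at every stage, so chance alone can give some of these. Peg10 had 600 CPM in ESC JB6 replicate 2, against 40 to 135 in the other 3 ESC libraries, and this library also had the lowest pluripotency and the highest epithelium marker sums. Its part in the Peg10 value was not tested. Ppp1r9a had 9.11 CPM in ESC JB6 replicate 1, against 55.9 to 65.2 in the others. Sgce had 5.05 in ESC BJ1 replicate 2 and a maternal share there of 3.03%, from a single maternal read base. The maternal share of Sgce was 2.91% in E13.5 BJ1 replicate 3, from 6 read bases. The maternal share of Peg10 was 0.353% in d12 JB6 replicate 2, against 0.236% to 0.241% in the others. Peg10 had 17 CPM in P0 JB6 replicate 3, against 9.88 to 11.6 in the others. Casd1 had 53.3 in d21 JB6 replicate 1, against 20.8 to 25.9 in the others.

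The parental bias of 3 members differed between stages in the test of the difference. The log2 difference was 0.52 for Casd1 (adjusted p = 0.0138) and 1.00 for Ppp1r9a (adjusted p = 1.02e-08) between d12 and E13.5. It was 0.79 for Ppp1r9a (adjusted p = 0.00228) between d12 and ESCs. Asb4 was also called there, as more maternal at d12 (adjusted p = 0.00525), with no size given. For Asb4 the ESC values rest on 20 JB6 and 70 BJ1 read bases in all.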

How the results depend on the processing

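Of 1929 values of single members under the alternatives, 1807 kept their side of the threshold, 85 lost a call and 36 gained one. A change of direction was counted only where either value was called, and 1 value turned round in this way. That was the strain bias of Asb4 at d12, which was not called as reported. It ran between -0.329 (adjusted p = 0.0135, without d12 JB6 replicate 2) and 0.241 (without d12 JB6 replicate 1). The causes were not tested.

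Members called for parental bias in ESCs numbered 2, and 0 with limma. For the difference in bias between d12 and E13.5 they numbered 2, and 1 with limma or with read bases divided by 3 (1 to 3 without a replicate). Between d12 and ESCs they numbered 2, and 1 with only the 2 stages fitted and 0 with read bases divided by 3 (0 to 2 without a replicate, 0 without ESC JB6 replicate 2, and 1 without either ESC BJ1 library or d12 BJ1 replicate 2). Between d21 and P0 they numbered 0, and 1 with only the 2 stages fitted or with no filter (0 to 1 without a replicate). For strain bias they numbered 3 in ESCs, 1 at d12, 1 at d21, 2 at P0 and 4 at E13.5. DESeq2 gave 1 in ESCs and 0 at d12, d21 and P0. Limma gave 0 at d12, d21 and P0 and 1 at E13.5. Read bases divided by 3 gave 0 at d12, d21 and P0 and 2 at E13.5, and separate scaling of the alleles gave 2 at d12. Leaving out a replicate gave 1 to 3 in ESCs, 0 to 2 at d12, 0 to 1 at d21, 0 to 2 at P0 and 2 to 4 at E13.5.

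Over all genes, calls of parental bias numbered 126, 184 and 153 in ESCs, d12 and d21, but 75, 92 and 99 with DESeq2 and 11, 55 and 50 with limma. Calls of strain bias numbered 4010, 3712, 3799 and 4588 in ESCs, d12, d21 and E13.5, but 2286, 1630, 1694 and 2837 with DESeq2, and with limma 2588, 1690 and 1840 in ESCs, d12 and d21. With read bases divided by 3 there were 117 parental and 2468 strain calls at d12. Calls of a difference in bias between d12 and ESCs numbered 29, but 12 with read bases divided by 3, 18 with only these stages fitted and 45 with limma. Between P0 and E13.5 they numbered 13, but 8 with read bases divided by 3, 6 with limma and 7 without the libraries labelled male. Between d21 and d12 they numbered 5, but 2 with read bases divided by 3.

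The replicate numbers did not pair the libraries: correlations of the deviations of same-numbered libraries ran from -0.327 to 0.139. With the replicate block, 4 members in place of 5 were called for level between d12 and E13.5 (7877 genes in place of 8775) and 3 in place of 4 for the paternal allele between P0 and E13.5, Casd1 being the one lost in both (adjusted p = 0.116 and 0.0903), and as many as without it in the other contrasts of level and allele. Asb4 and the maternal read bases of Peg10 and Sgce are limited by depth in ESCs and cortex.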
